A study of Ovis aries with 6 samples.

Results

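HOX genes encode homeodomain transcription factors that lie in 4 clusters, named A to D, and are numbered by paralog group from 1 to 13 along each cluster. The genes were picked by symbol, as every row of the gene table whose name is HOX followed by a cluster letter and a group number, which gave 37 of 23144 genes. Their level in longissimus dorsi, the long muscle of the back, and the difference between a breed for meat and wool and a local breed were examined. Genes of low group number lie at the 3′ end of a cluster and are active early and far forward in the embryo, while those of high group number are active later and toward the tail, so that the set of active HOX genes marks a position along the body axis. Adult mesenchymal tissues, among them muscle connective tissue and muscle stem cells, keep part of this code. HOX proteins bind DNA together with TALE homeodomain cofactors, and Polycomb and Trithorax complexes hold the genes of a cluster silent or active.

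The study set Qianhua Mutton Merino (QHMM) beside Small Tail Han (STH) sheep to find genes related to muscle growth. All animals were females aged 1 year, kept in the same environment, and 3 of each breed gave longissimus dorsi, with 1 library per animal. Poly(A) RNA was read on an Ion Proton instrument, and 10982191 to 14334544 reads per library were counted on genes. Values of single libraries are given in the order of replicates 1, 2 and 3 throughout, and the breed difference is always that of STH vs. QHMM. On the second principal component of all tested genes, which held 19.1% of the variance, 2 libraries stood away from the remaining 4, QHMM replicate 2 and STH replicate 3, while the first component (44.1%) separated the breeds. Longissimus runs along the trunk, and the level of the spine at which each sample was cut is not given in the sources used here.

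A gene was taken as detected in longissimus when it had more than 3 reads in all 6 libraries, and 20 of the 37 HOX genes were. Detection reached from paralog group 1 to group 10, and no gene of groups 11, 12 and 13 was detected by this rule. In the front part, HOXD1 was detected in group 1, HOXB2 in group 2, HOXA3 and HOXD3 in group 3, and all 4 genes of group 4 (HOXA4, HOXB4, HOXC4 and HOXD4). In the middle part, HOXA5 was detected in group 5, HOXA6, HOXB6 and HOXC6 in group 6, HOXB7 in group 7, and HOXC8 and HOXD8 in group 8. At the rear end of the detected range, HOXA9, HOXC9 and HOXD9 were detected in group 9 and HOXA10 and HOXC10 in group 10. By cluster, 6 of 9 HOXA genes, 4 of 10 HOXB genes, 5 of 9 HOXC genes and 5 of 9 HOXD genes were detected. Another 7 genes passed 3 reads in some libraries (HOXA2, HOXB3, HOXB5, HOXB8, HOXB9, HOXC5 and HOXC11), and 2 had reads but never more than 3 (HOXA13 and HOXD10). The remaining 8 (HOXA11, HOXB1, HOXB13, HOXC12, HOXC13, HOXD11, HOXD12 and HOXD13) had no read in any library. A count of 0 allows up to 3 reads by counting error alone, which is 0.209 to 0.273 CPM (counts scaled to library size) at these depths. A 0 in all libraries can also come from the gene model used for counting, which was not examined for the HOX genes, and TNNT3, a gene of fast muscle fibres, was likewise at 0 in all 6. HOXA7 has no row in the gene table and was not analysed here.

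The rear limit was not the same in all clusters. In HOXA and HOXC the last detected gene was of group 10, in HOXD of group 9 and in HOXB of group 7. The limit moved with the detection rule in 2 clusters, to HOXD10 when at least 1 count in all 6 libraries was asked for and to HOXB4 when an RPKM of at least 1 was. HOXA10 had 138 to 233 reads per library, and HOXA11, the next gene of its cluster toward the tail end, had 0 in all 6. HOXC10 had 191 to 603 reads, HOXC11 had 0 to 11, and HOXC12 and HOXC13 had 0. HOXD9 had 105 to 226 reads where its neighbour HOXD10 had 1 to 3, and HOXD11, HOXD12 and HOXD13 had 0. HOXB7 had 16 to 33 reads, HOXB8 had 0 to 4 and HOXB9 had 0 to 6. Group 10 genes give vertebrae of the lumbar region their lack of ribs, and group 11 genes pattern the sacral region, so the limit in HOXA and HOXC falls between a lumbar and a sacral group. The steps were present in both breeds, and the smallest of the HOXC10 values was above the largest of the HOXC11 values.

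**Figure D1:**
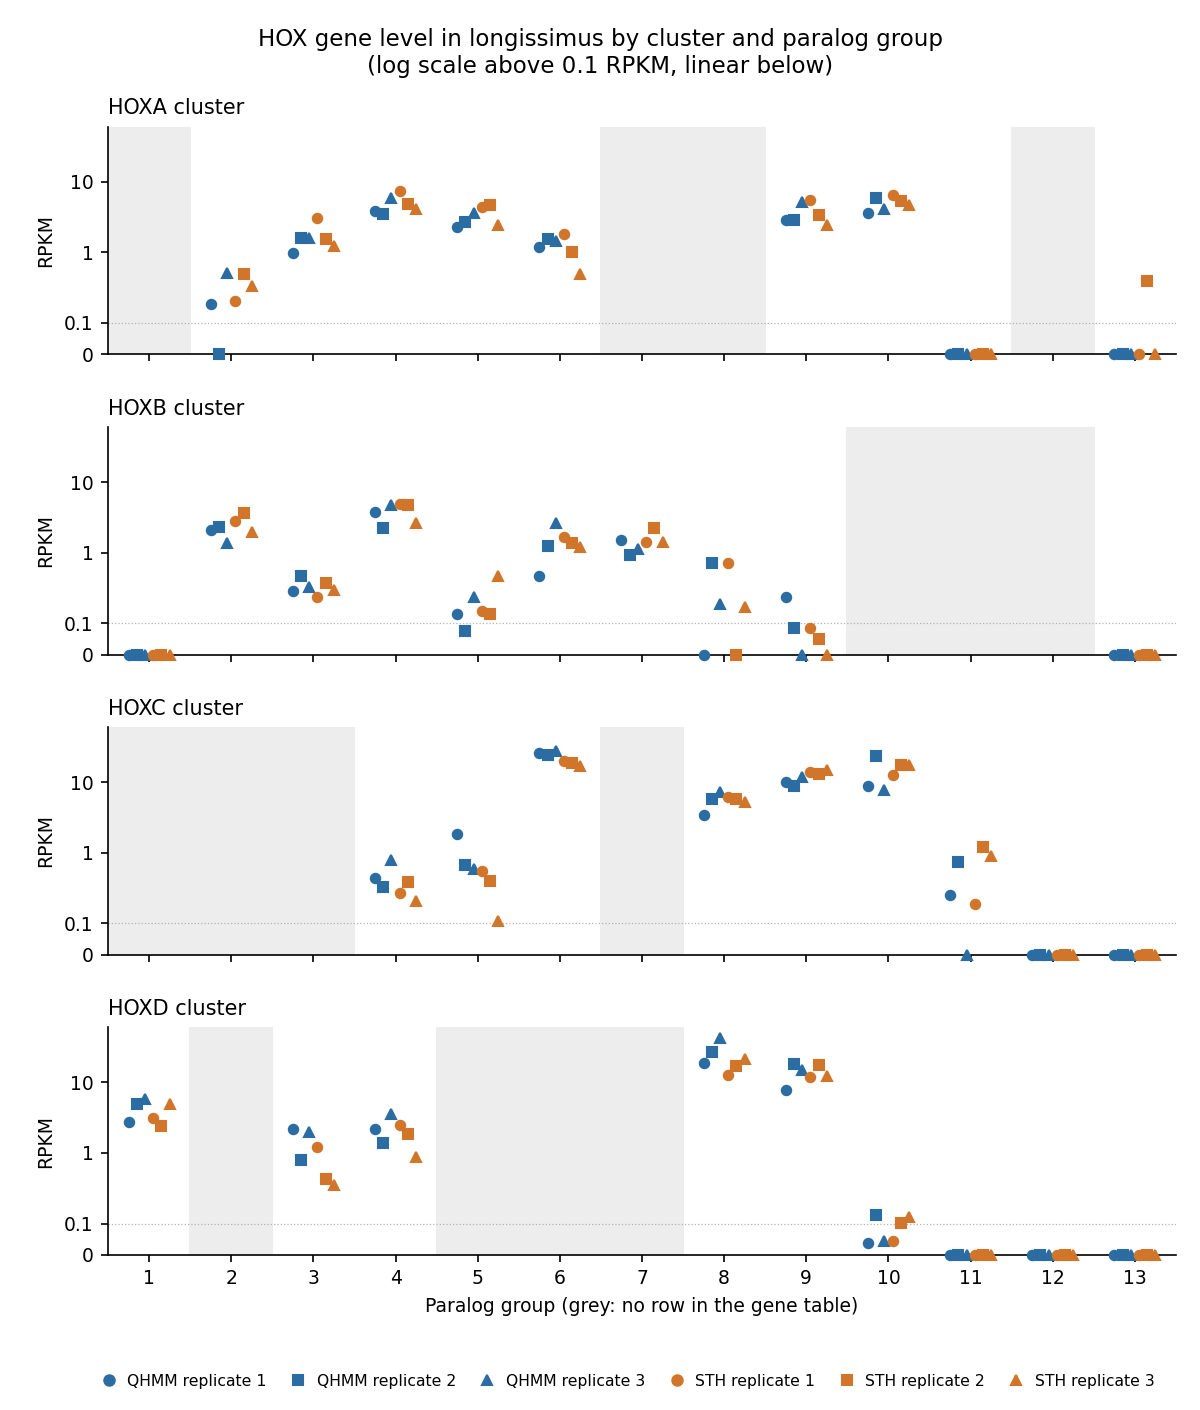
RPKM (reads scaled to gene length and to the counted reads of the library) of the 37 HOX genes in each of the 6 libraries, 1 panel per cluster, with the paralog group on the horizontal axis and RPKM on a vertical axis that is logarithmic above 0.1 and linear below. Levels are highest at HOXC6, HOXD8, HOXD9, HOXC9 and HOXC10 and are at or near 0 from group 11 on, with 1.22 for HOXC11 in STH replicate 2 as the highest value of groups 11 to 13.

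To compare genes with each other, levels were taken as RPKM, which scales a count to gene length and sequencing depth. The 5 most abundant HOX genes were HOXD8 with a mean of 23.3 ± 10.7 RPKM (SD, n = 6), HOXC6 with 22.1 ± 4.36, HOXC10 with 14.7 ± 5.995, HOXD9 with 13.8 ± 3.94 and HOXC9 with 12.1 ± 2.26. Neighbours within these 5 overlapped in their ranges over the libraries, so their order is not fixed. Below them was a step, since the lowest HOXC9 value (8.90) was above the highest value of HOXC8 (7.36), the next gene, in a comparison that held in 6 of 6 libraries. Further down the order, the ranges of each gene and the next overlapped. The 5 genes together held 66.2, 71.2 and 66.4% of the summed HOX RPKM in the QHMM libraries and 56.4, 64.2 and 69.2% in the STH libraries. HOXD8 and HOXC6 ranked at percentiles 90.3 and 89.9 of mean RPKM among 23119 genes, so these transcription factor genes were among the upper part of the muscle transcriptome. Length matters for this order: HOXA10 and HOXD9 had similar read numbers, but the gene length behind the RPKM was 2715 bases for HOXA10 and 951 for HOXD9, and the level of HOXA10 was 5.02 RPKM.

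Among the front groups, HOXD1 was the detected member of group 1, with 2.76, 4.99 and 5.82 RPKM in the QHMM libraries and 3.11, 2.40 and 4.96 in the STH libraries. HOXB1, which acts in the hindbrain, had no read. HOXB2, a hindbrain and pharyngeal arch gene of group 2, had 2.09, 2.31 and 1.36 RPKM in QHMM and 2.84, 3.60 and 1.95 in STH, while its paralog HOXA2 had 0 to 7 reads per library. In group 3, HOXA3, needed for thymus and parathyroid formation, had 0.989, 1.61 and 1.58 RPKM in QHMM and 3.04, 1.54 and 1.25 in STH, and STH replicate 1 was the highest. HOXD3, which shapes the first neck vertebra, had 2.15, 0.792 and 1.98 RPKM in QHMM and 1.21, 0.432 and 0.3501 in STH, with QHMM replicates 1 and 3 above all other libraries. HOXB3 had 3 to 6 reads per library.

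Group 4, whose genes pattern the neck, was the group with all its members detected from 4 clusters. HOXA4 had 3.88, 3.55 and 5.90 RPKM in QHMM and 7.31, 4.86 and 4.10 in STH. For HOXB4, which also acts in blood stem cells, the values were 3.74, 2.24 and 4.70 RPKM in QHMM and 4.88, 4.77 and 2.66 in STH. HOXD4 followed with 2.19, 1.38 and 3.57 RPKM in QHMM and 2.51, 1.84 and 0.884 in STH. HOXD4 was below HOXA4 and HOXB4 in RPKM in 6 of 6 libraries, and in each of the 3 genes the breeds overlapped. HOXC4 was far lower, at 0.439, 0.323 and 0.790 RPKM in QHMM and 0.267, 0.382 and 0.206 in STH, from 4 to 14 reads per library, and it was the detected HOX gene that did not pass the low-count filter of the breed test.

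In the middle groups, HOXA5, which acts in lung and in the patterning of the neck and thorax boundary, had 2.30, 2.69 and 3.60 RPKM in QHMM and 4.44, 4.68 and 2.43 in STH. Its paralog HOXC5 had 5 to 18 reads in QHMM and 1 to 5 in STH, and HOXB5 had 2 to 13 reads over all libraries. Group 6, whose genes promote rib formation in the thorax, was dominated by HOXC6. HOXC6 had 25.9, 24.2 and 27.6 RPKM in QHMM and 19.7, 18.7 and 16.8 in STH, so that every QHMM library was above every STH library. HOXA6 had 1.18, 1.56 and 1.46 RPKM in QHMM and 1.81, 1.03 and 0.499 in STH, with STH replicate 3 the lowest. HOXB6 ranged more widely, with 0.469, 1.24 and 2.61 RPKM in QHMM and 1.64, 1.35 and 1.19 in STH, and the lowest and the highest value were both in QHMM. HOXB7, the listed member of group 7, had 1.4997, 0.914 and 1.14 RPKM in QHMM and 1.41, 2.23 and 1.42 in STH. Group 8 genes are expressed in the thoracic trunk, and HOXD8 and HOXC8 were both detected. HOXD8 had 19.04, 26.6 and 43.1 RPKM in QHMM and 12.9, 17.1 and 21.1 in STH, and QHMM replicate 3 was the highest value of any HOX gene in any library. HOXC8, which helps to set the identity of thoracic vertebrae and limb-level motor neurons, had 3.47, 5.79 and 7.36 RPKM in QHMM and 6.24, 5.84 and 5.29 in STH, with the breeds interleaved.

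Group 9 was detected in 3 clusters. HOXC9, which sets the thoracic identity of motor neurons, had 10.02, 8.90 and 11.7 RPKM in QHMM and 13.8, 13.3 and 14.7 in STH, and here every STH library was above every QHMM library. HOXD9 had 7.70, 18.3 and 14.8 RPKM in QHMM and 12.1, 17.5 and 12.3 in STH, with QHMM replicate 1 the lowest and QHMM replicate 2 the highest. HOXA9, also a gene of blood progenitors, had 2.84, 2.90 and 5.22 RPKM in QHMM and 5.60, 3.39 and 2.42 in STH, and the breeds overlapped. HOXB9 was above 3 reads in QHMM replicate 1 and in no other library. In group 10, HOXA10 had 3.57, 5.84 and 4.10 RPKM in QHMM and 6.55, 5.37 and 4.70 in STH. HOXC10, which with its paralogs sets lumbar identity, had 8.93, 23.5 and 7.80 RPKM in QHMM and 12.7, 17.5 and 17.8 in STH, with QHMM replicate 2 above and QHMM replicates 1 and 3 below all STH libraries. HOXC11 was above 3 reads in QHMM replicate 2 and STH replicates 2 and 3, the 3 libraries that also had the highest HOXC10 values. HOXA13, a gene of the limb tip and the tail end, had 2 reads in STH replicate 2 and 0 elsewhere.

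Summed over its members, groups 6, 8, 9 and 10 held the largest shares of the HOX level on average, although group 4 was above group 10 in QHMM replicate 3. Group 9 held 19.2, 21.2 and 20.1% of the summed HOX RPKM in QHMM and 25.1, 26.1 and 24.6% in STH. In this share every STH library was above every QHMM library. The level of group 9 itself overlapped, at 20.8, 30.2 and 31.7 RPKM in QHMM and 31.6, 34.2 and 29.3 in STH. For group 6 the shares were 25.5, 18.97 and 20.02% among QHMM and 18.3, 16.1 and 15.5% among STH libraries, with all QHMM libraries above all STH libraries. For group 8 they were 20.8, 23.2 and 32.1% for QHMM and 15.7, 17.6 and 22.3% for STH, and the breeds overlapped. The share of group 10 was most variable within QHMM, at 11.6, 20.7 and 7.56%, and was 15.2, 17.5 and 18.96% in STH. Taken in wider blocks, groups 1 to 4 held 17.3, 12.4 and 16.8% in QHMM and 20.3, 15.8 and 14.2% in STH. Groups 5 to 8 held 51.6, 45.2 and 55.6% in QHMM and 39.3, 39.3 and 41.5% in STH, without overlap, and groups 9 to 13 held 31.1, 42.4 and 27.6% in QHMM and 40.4, 44.9 and 44.3% in STH, where QHMM replicate 2 lay among the STH libraries. The front block was thus the smallest of the 3 in every library, and the middle block was larger in every QHMM library than in any STH library. These shares are descriptions and carry no test, since they sum over genes chosen as a family. By cluster, HOXC held 47.0, 45.0 and 35.3% in QHMM and 42.3, 43.7 and 46.7% in STH, and HOXD held 31.3, 36.6 and 43.8% in QHMM and 25.3, 30.1 and 33.3% in STH. HOXA held 13.8, 12.7 and 14.2% in QHMM and 22.9, 16.6 and 13.2% in STH, and HOXB was lowest in every library with 7.81, 5.65 and 6.68% in QHMM and 9.47, 9.55 and 6.84% in STH.

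**Figure D2:**
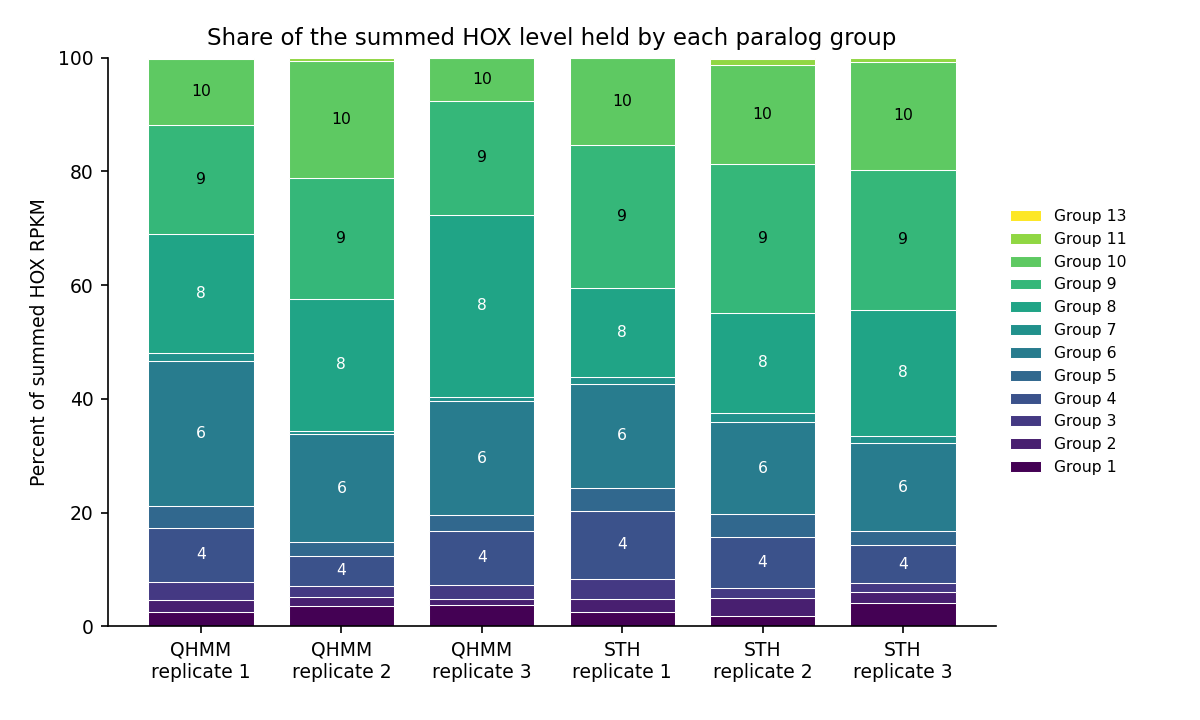
Percent of the summed HOX RPKM held by each paralog group in each library, stacked from group 1 at the bottom, with segments of at least 5% marked by their group number. Groups 6, 8, 9 and 10 make up most of every bar, and the group 9 segment is larger in each STH library (24.6% to 26.1%) than in any QHMM library (19.2% to 21.2%). The group 9 level in RPKM, not shown here, overlapped between the breeds.

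The total HOX level was similar in the breeds. Summed over the 37 genes it was 108, 143 and 158 RPKM in the QHMM libraries and 126, 131 and 119 in the STH libraries, so the STH values lay within the QHMM range.

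The breed comparison asked which HOX genes differ in level between QHMM and STH muscle. The counts were normalized by the TMM method of edgeR and tested with its quasi-likelihood F test. A gene was called when its FDR (the p-value adjusted by the Benjamini-Hochberg method over all tested genes) was below 0.05 and its fold change above 1.5. Of the HOX genes, 19 passed the filter on low counts and 0 were called, where 432 of 12506 genes (3.45%) were called over the whole table, 203 higher in STH (1.62%) and 229 lower (1.83%). DESeq2 and limma-trend on RPKM also called 0, with 3 and 2 HOX genes at an unadjusted p below 0.05. Before adjustment, edgeR gave a p-value below 0.05 to 3 of the 19, HOXC6, HOXD3 and HOXD8, a share of 15.8% beside 19.2% of all tested genes. All 3 were lower in STH, a direction in which 9.72% of all genes had such a p-value. Every STH library was below every QHMM library for 1 HOX gene, HOXC6 (11.7% of all genes), and above for 1, HOXC9 (13% of all genes). The share of HOX genes lay below that of the table in these comparisons, except for genes lower in STH before adjustment, where 15.8% stood beside 9.72%. The median log2 fold change was -0.05 over the 19 HOX genes, with 9 above 0 and 10 below, and 0.02 over all tested genes. The HOX median took either sign across the other settings. It ranged from -0.28 without QHMM replicate 1 to 0.21 when limma-trend was run on log2(RPKM + 0.1). In these settings the median of all tested genes was 0.02 and 0.11, so part of the second value was shared by all genes. In bulk muscle, fewer cells of a type and less RNA per cell cannot be told apart. With 3 animals per breed, an exact permutation test of a single gene cannot give a p below 0.10. The number of all genes called was 131, 208 and 150 without QHMM replicates 1, 2 and 3. It was 535, 183 and 329 without STH replicates 1, 2 and 3.

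**Figure D3:**
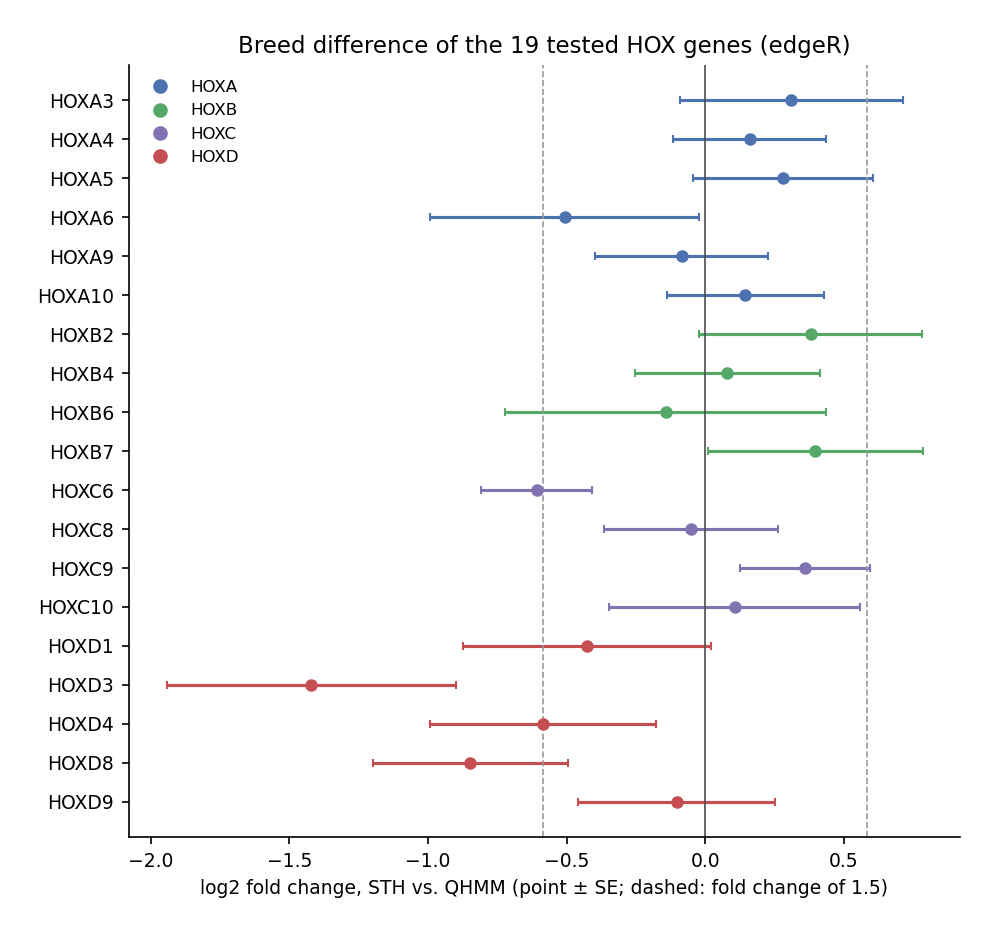
Log2 fold change of STH vs. QHMM for the 19 tested HOX genes, as points with bars of 1 SE, ordered by cluster and paralog group, with dashed lines at a fold change of 1.5 in either direction. The HOXD points lie below 0, from -1.42 for HOXD3 to -0.10 for HOXD9, and no gene passed the FDR threshold.

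In the HOXC cluster, HOXC6 and HOXC9 lay apart between the breeds in opposite directions. HOXC6 had 369, 410.0 and 386 normalized counts in the QHMM libraries and 237, 244 and 283 in the STH libraries. All STH libraries were below all QHMM libraries, and the spread within a breed was small, with 388 ± 20.4 in QHMM and 255 ± 24.9 in STH (mean ± SD, n = 3). Its log2 fold change was -0.61 (SE 0.20, FDR = 0.129) with an unadjusted p of 0.0120, the lowest FDR among the HOX genes, and it was not called. HOXC9 had 199, 210.2 and 229 normalized counts in QHMM and 233, 242 and 346 in STH. The STH libraries were all higher, although STH replicates 1 and 2 were close to QHMM replicate 3. The log2 fold change of HOXC9 was 0.36 (SE 0.23, FDR = 0.444). HOXC8, which lies between them in the cluster, had normalized counts of 52.3, 103 and 109 for QHMM and 79.4, 80.6 and 94.5 for STH, with QHMM replicate 1 the lowest and the breeds overlapping. HOXC10 had 224, 700.3 and 192 normalized counts in QHMM and 269, 402 and 530.2 in STH. QHMM replicate 2 was the highest library, STH replicate 3 the next, and QHMM replicates 1 and 3 the lowest, so the breeds overlapped. The log2 fold change of HOXC10 was 0.11 (SE 0.45, FDR = 0.929). Without QHMM replicate 2 it was 0.94 with an FDR of 0.201, and it turned to -0.18 and -0.20 without QHMM replicates 1 and 3 and to -0.15 without STH replicate 3, so its direction depended on which library was left out. At the 3′ end of the same cluster, HOXC4 and HOXC5 were below the filter for the test. HOXC4 had 7.97, 6.97 and 14.1 normalized counts in QHMM and 4.09, 6.36 and 4.45 in STH, and HOXC5 had normalized counts of 15.9, 6.97 and 5.04 for QHMM and 4.09, 3.18 and 1.11 for STH. On this scale each STH value was below each QHMM value in both, at counts where a few reads decide the order, and for HOXC4 the breeds overlapped in RPKM.

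**Figure D4:**
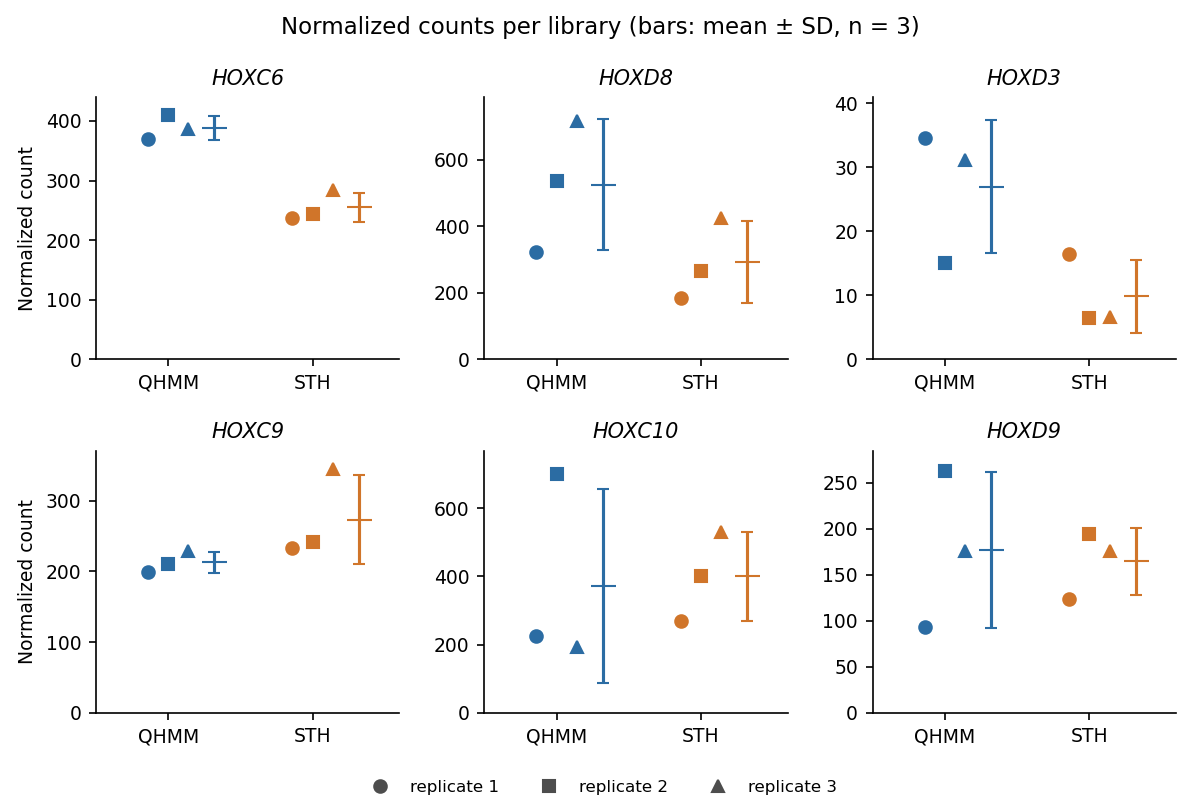
Normalized counts of 6 HOX genes in each library, with a symbol per replicate and a bar for the mean ± SD of the 3 libraries of a breed, on axes that start at 0. The STH libraries lie below the QHMM libraries for HOXC6 and above them for HOXC9, while for HOXC10 QHMM replicate 2 (700.3) is far above the other QHMM libraries.

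The 5 tested HOXD genes all had log2 fold changes below 0, with a median of -0.58. HOXD9 was above 0 without QHMM replicate 2 (0.30), without STH replicate 1 (0.0527) and when QHMM replicate 2 and STH replicate 3 were both omitted (0.23). With limma-trend on log2(RPKM + 1) and log2(RPKM + 0.1) HOXD9 was also above 0 (0.094 and 0.106). There it lay below the median of all tested genes (0.117 and 0.109). HOXD8 had 322, 534 and 717 normalized counts in the QHMM libraries and 185, 266 and 425 in the STH libraries. The highest STH library (replicate 3) was above the lowest QHMM library (replicate 1), so the breeds overlapped. Its log2 fold change was -0.85 (SE 0.35, FDR = 0.218), with an unadjusted p of 0.0350. HOXD3, at a far lower count, had 34.5, 15.1 and 31.2 normalized counts in QHMM and 16.4, 6.36 and 6.67 in STH. QHMM replicate 2 was slightly below STH replicate 1, and the breeds overlapped. HOXD3 had the log2 fold change of largest size among the HOX genes, at -1.42 (SE 0.52, FDR = 0.168), with an unadjusted p of 0.0203. HOXD1 had normalized counts of 29.2, 62.7 and 60.4 for QHMM and 27.8, 23.3 and 62.2 for STH, with QHMM replicates 2 and 3 and STH replicate 3 high and the other 3 libraries low. HOXD4 had normalized counts of 37.2, 27.9 and 59.4 for QHMM and 36.0, 28.6 and 17.8 for STH, with the highest value in QHMM replicate 3 and the lowest in STH replicate 3. HOXD9 had normalized counts of 93.0, 262 and 175 for QHMM and 124, 194 and 176 for STH, and the STH values lay within the QHMM range. The FDR of HOXD1, HOXD4 and HOXD9 lay between 0.479 and 0.908.

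In the HOXA and HOXB clusters, the breeds overlapped for all 10 tested genes, and their FDR lay between 0.619 and 0.927. Log2 fold changes ranged from -0.51 for HOXA6 to 0.31 for HOXA3 in HOXA, and from -0.14 for HOXB6 to 0.40 for HOXB7 in HOXB. The sign of HOXA3 turned without STH replicate 1 (-0.0472) and that of HOXB6 without QHMM replicate 3 (0.51). HOXA10, the most abundant of them, had 123, 239 and 139 normalized counts in QHMM and 191, 169.6 and 192 in STH. As with HOXC10, its group 10 paralog, QHMM replicate 2 was the highest library for HOXA10 in normalized counts and QHMM replicates 1 and 3 were the lowest, whereas in RPKM STH replicate 1 was the highest for HOXA10. HOXA9 had normalized counts of 73.5, 89.4 and 133 for QHMM and 123, 80.6 and 74.5 for STH, where QHMM replicate 3 and STH replicate 1 were high. HOXA4 had normalized counts of 67.3, 73.2 and 101 for QHMM and 107, 77.4 and 84.5 for STH, and the same 2 libraries were its highest. HOXA3 had normalized counts of 18.6, 36.0 and 29.2 for QHMM and 48.3, 26.5 and 27.8 for STH, with STH replicate 1 on top. HOXA5 had normalized counts of 30.1, 41.8 and 46.3 for QHMM and 49.1, 56.2 and 37.8 for STH, a range without a library far from the rest. HOXA6 had normalized counts of 13.3, 20.9 and 16.1 for QHMM and 17.2, 10.6 and 6.67 for STH, where STH replicate 3 was the lowest. In HOXB, HOXB4 had normalized counts of 40.7, 29.0 and 50.4 for QHMM and 45.0, 47.7 and 34.5 for STH, with QHMM replicate 2 the lowest. HOXB2 had normalized counts of 22.1, 29.0 and 14.1 for QHMM and 25.4, 35.0 and 24.5 for STH, and QHMM replicate 3 was the lowest. HOXB7 had normalized counts of 25.7, 18.6 and 19.1 for QHMM and 20.5, 35.0 and 28.9 for STH, with STH replicate 2 the highest. HOXB6 had normalized counts of 4.43, 13.9 and 24.2 for QHMM and 13.1, 11.7 and 13.3 for STH, where QHMM replicates 1 and 3 enclosed all other libraries.

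Neighbouring HOX genes may share reads where their gene models overlap. In the RefSeq annotation of another assembly (ARS-UI_Ramb_v3.0), in which 36 of the 37 symbols were found, 9 pairs of HOX genes overlap, namely HOXA3 with HOXA4, HOXA5 and HOXA6, HOXA4 with HOXA5, HOXB3 with HOXB4, HOXB7 with HOXB8 and HOXB9, HOXB8 with HOXB9 and HOXD10 with HOXD11. The strand listed for the genes is the same throughout each cluster, so strand would not separate such pairs, and the split of reads within them is uncertain. HOXB8, HOXB9, HOXD10 and HOXD11, the low genes just past the rear limits of HOXB and HOXD, are in such pairs. Those limits are therefore uncertain as well.

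The genes that act with the HOX clusters were read from fixed lists. Of 99 such genes in the table, 76 were tested and 4 were called, 2 higher and 2 lower in STH, where 3.45% of all tested genes were called (1.62% higher and 1.83% lower), with a median log2 fold change of 0.02 beside 0.02 over all genes. The 4 calls became 1, 3 and 2 without QHMM replicates 1, 2 and 3, and 6, 1 and 3 without STH replicates 1, 2 and 3. The TALE cofactors, which bind DNA as partners of HOX proteins, gave 0 calls among 8 tested genes (median 0.14). PBX2 was their most abundant member with 32.2, 32.9 and 32.1 RPKM in QHMM and 33.1, 31.2 and 40.0 in STH, followed by PKNOX2 with 12.1, 15.0 and 16.6 RPKM in QHMM and 26.0, 15.8 and 22.1 in STH. PKNOX1 had 4.37, 3.08 and 5.44 RPKM in QHMM and 6.31, 14.9 and 7.19 in STH, where STH replicate 2 stood highest. In the Polycomb list, whose products keep HOX genes silent, 0 of 21 tested genes were called (median 0.16). Its most abundant members were EZH1, a histone methyltransferase of resting cells, with 19.7, 26.6 and 25.5 RPKM in QHMM and 32.5, 36.0 and 22.5 in STH, RBBP7 with 25.0, 20.6 and 29.2 RPKM in QHMM and 25.8, 23.1 and 18.1 in STH, and PCGF2 with 23.9, 24.6 and 23.1 RPKM in QHMM and 19.8, 19.2 and 23.8 in STH. The Trithorax list, of genes that keep HOX genes active, also had 0 calls among 8 tested genes (median 0.05), with CXXC1, ASH2L and DPY30 at mean levels of 10.7, 8.18 and 7.71 RPKM. Detection of these HOX cofactor and chromatin genes was counted over the listed genes that had a row. Detected in all 6 libraries were 8 of 9 TALE, 22 of 23 Polycomb and 8 of 8 Trithorax genes, and edgeR called none. The Polycomb and Trithorax lists were fixed at 26 and 14 genes. Those without a row, among them KMT2A, KMT2B, KMT2C and KMT2D of the Trithorax list, were not analysed here. PKNOX1 was called without STH replicate 1 (FDR = 0.0450), and the Polycomb list had 1 call in each of 3 settings (DESeq2, edgeR with no filter on low counts, and edgeR without STH replicate 1), which were not compared by gene, while the Trithorax list had 0 calls in every setting.

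Among upstream axial signals, where retinoic acid and its receptors switch on the front HOX genes in the embryo, 1 of 8 tested genes was called, beside 3.45% of all genes (median -0.72). RXRG, a retinoid receptor, had 1111, 1433 and 761 normalized counts in the QHMM libraries and 310.4, 154 and 357 in the STH libraries. All STH libraries were below all QHMM libraries, and RXRG fell by 2.01 on the log2 scale (SE 0.34, FDR = 0.0143). The call of RXRG was lost when QHMM replicate 2 and STH replicate 3 were both omitted (FDR = 0.0962). The most abundant members that were not called were ALDH1A1, an enzyme of retinoic acid synthesis, with 37.0, 15.0 and 56.8 RPKM in QHMM and 26.1, 12.4 and 14.8 in STH, and the receptors RXRB (mean 19.6) and RARG (mean 5.45). DESeq2, unlike edgeR, called ALDH1A1 (FDR = 0.0353). CDX1, CDX2, CDX4, FGF8 and WNT3A, which act on HOX clusters in the embryo, had no read. Among other positional regulators, 1 of 14 tested genes was called, beside 3.45% of all genes (median -0.27). PITX3 had 11.5, 31.4 and 101 normalized counts in QHMM and 207, 239 and 679 in STH. All STH libraries were above all QHMM libraries, and the animals of each breed differed widely. PITX3 rose by 2.97 on the log2 scale (SE 0.68, FDR = 0.0435), and the call was lost without QHMM replicate 1 (FDR = 0.0937), QHMM replicate 2 (0.138), STH replicate 2 (0.0554) or STH replicate 3 (0.0942). With all libraries kept, PITX3 lost the call under robust dispersions (FDR = 0.147), upper-quartile normalization (0.0501) and limma-trend run on log2(RPKM + 0.1) (0.0600), and it also lost it when QHMM replicate 2 and STH replicate 3 were both omitted (0.296). TBX15 and MEOX2, regulators of muscle and trunk mesoderm, were not called and had mean levels of 26.9 and 13.2 RPKM.

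Among non-HOX genes listed as neighbours of the clusters, whose distance to a HOX gene was not measured, 2 of 17 tested genes were called, beside 3.45% of all genes (median -0.07). CALCOCO2, an autophagy receptor on the chromosome of the HOXB cluster, had 882, 1114 and 1226 normalized counts in QHMM and 2032, 2949 and 2002 in STH. Each STH library was above each QHMM library, and CALCOCO2 rose by 1.12 on the log2 scale (SE 0.25, FDR = 0.0396). It lost the call without QHMM replicate 1 (FDR = 0.1401), QHMM replicate 2 (0.103), QHMM replicate 3 (0.0857) or STH replicate 2 (0.117), under limma-trend run on log2(RPKM + 0.1) (0.0642) and when QHMM replicate 2 and STH replicate 3 were both omitted (0.155). ZNF385A, a zinc finger gene on the chromosome of HOXC, had normalized counts of 115, 52.3 and 113 for QHMM and 36.8, 28.6 and 28.9 for STH. All STH values were lower without overlap, and ZNF385A fell by 1.57 (SE 0.36, FDR = 0.0419). Without QHMM replicates 1 or 3 or STH replicates 1, 2 or 3 its FDR was 0.1205, 0.1296, 0.0513, 0.114 and 0.0893, past the threshold in none. The call of ZNF385A was also lost under limma-trend, with an FDR of 0.1301 on log2(RPKM + 1) and 0.207 on log2(RPKM + 0.1), and when QHMM replicate 2 and STH replicate 3 were both omitted (0.0850). ATP5G1, CALCOCO1 and COPZ1, on the chromosomes of HOXB and HOXC, were the most abundant of those not called, with means of 623, 69.7 and 37.7 RPKM. EVX1 and EVX2, homeobox genes beside the tail end of HOXA and HOXD, had no read.

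Since HOX genes are expressed in several cell types of muscle, the levels of cell-type markers were set beside them, as RPKM summed over a list and divided by the TMM factor of the library. Muscle fibre markers summed to 121820.0, 163792 and 131913 in the QHMM libraries and 82390.5, 112141 and 175128 in the STH libraries, with ACTA1 as the most abundant and 6 of 7 genes detected, while TNNT3 was listed at 0. Fibroblast markers (8 of 8 detected) summed to 1005, 846 and 1052 in the QHMM libraries and 1129, 675 and 840.1 in the STH libraries, with GSN as the most abundant. Satellite cell markers (8 of 9 detected) summed to 57.1, 34.9 and 34.3 in the QHMM libraries and 40.2, 35.0 and 29.5 in the STH libraries, and SPRY1 was the highest. The fibre, fibroblast and satellite cell sums overlapped between the breeds, but a sum follows its most abundant genes. Of the fibroblast sum, GSN alone held 518, 465 and 484 in QHMM and 684, 433 and 543 in STH. The median log2 fold changes of the fibre, fibroblast and satellite cell lists were -0.12, -0.46 and -0.42. CDH15, 1 of 8 tested satellite cell genes, was called higher in STH (1.62% of all genes), against its list median. Tenocyte markers (3 of 5 detected, THBS4 the most abundant) summed to 95.7, 55.5 and 160.3 in the QHMM libraries and 58.2, 52.8 and 72.7 in the STH libraries. Endothelial markers (6 of 6, PECAM1) summed to 220.5, 196 and 178 in the QHMM libraries and 219, 194 and 194 in the STH libraries, and smooth muscle and pericyte markers (10 of 10, ACTA2) to 365, 218 and 157 in the QHMM libraries and 332, 216 and 261 in the STH libraries. Leukocyte markers (9 of 9, CD14) summed to 56.3, 58.8 and 45.1 in the QHMM libraries and 57.4, 42.7 and 40.1 in the STH libraries, and Schwann cell markers (8 of 9, PMP22) to 156, 93.1 and 86.9 in the QHMM libraries and 115, 56.1 and 110.1 in the STH libraries. These sums overlapped between the breeds as well, and no gene of these lists was called. Their median log2 fold changes were -0.62 for tenocyte, -0.52 for leukocyte and -0.06 for Schwann cell markers. The medians were 0.01 for endothelial and 0.14 for smooth muscle and pericyte markers. Adipocyte markers (9 of 10 detected) summed to 531, 229.8 and 227 in the QHMM libraries and 268, 247 and 229 in the STH libraries, with QHMM replicate 1 the highest and the breeds overlapping. ADIPOQ, PLIN1, LEP, CIDEC and DGAT2, 5 of the 10 adipocyte genes, were called lower in STH (1.83% of all genes) and the list median was -2.07, while PNPLA2, the most abundant, had 42.7, 80.7 and 46.9 in QHMM and the higher values 99.8, 137 and 126 in STH on the same scale. Erythrocyte markers were not detected in all libraries for any of 4 genes and summed to at most 3.02, with SLC4A1 and HBM at 0. For all these lists, their part in the result was not tested.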

How the data were processed

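Ion Proton reads from longissimus dorsi of 3 QHMM and 3 STH females were mapped by the authors to the sheep genome (Oar 3.1 in the submitters' processing notes), and the counts of unique mapped reads per gene were deposited without normalization. The RPKM values deposited by the authors scale these counts by gene length and library total. The aligner and the counting program are not given in the sources used here. The 25 gene names that had become dates in the RPKM table were left out of it, which left 23119 genes. Counts were tested in R 4.3.3 with edgeR 4.0.16 (TMM, filterByExpr, glmQLFTest with breed as the only term), and alternatives used DESeq2 1.42.0 and limma 3.58.1. Alternatives were other normalization, filters, dispersions, thresholds and tests, fits without 1 or 2 libraries or the 20 most abundant genes, and a term for the replicate number. The methods were tested on simulated data. Tables and plots were made with Python 3.11.15, pandas 2.3.3 and matplotlib 3.10.9.

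Libraries held 10982191 to 14334544 counts, and limits from counts cover counting error only. Breeds were taken from the sample labels. Every HOX gene could be named. Of the fixed lists, called members and up to 3 of the most abundant uncalled members by mean RPKM were named, and of marker lists the summed level and the most abundant gene, besides called markers and genes without a read, which were chosen after their values were seen. The members and lists were chosen with earlier results of these data known. Some genes of the lists have no row under the symbol used and were not analysed here, so detected genes are counted out of those with a row. KIAA1524 and KIAA1715 of the neighbour list, both tested, were not matched to a HOX chromosome in RefSeq, while the other 21 were. No sequences are shown, since none of the files' build was used here.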

Additional observations from a re-analysis of the deposited data

How the results depend on the processing

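In all 18 other settings, 6 of which left out 1 library each, 0 HOX genes were called, and the lowest FDR of a HOX gene was 0.0745 (HOXD8 with the replicate block). The other counts moved. DESeq2 called 962 genes and 8 of the lists, no filter on low counts 806 and 7, limma-trend on log2(RPKM + 0.1) 180 and 1, an FDR threshold of 0.01 gave 41 and 0, and omitting QHMM replicate 2 and STH replicate 3 together 11 and 0. With 1 library left out, 131 to 535 genes and 1 to 6 list genes were called, and the HOX median lay between -0.28 and 0.13. It was 0.21 with limma-trend on log2(RPKM + 0.1), where the median of all tested genes was 0.11. Requiring an RPKM of at least 1 in all 6 libraries left 13 HOX genes detected, against 20. Paralog group levels moved by less than their SD over libraries, or not at all.

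Of the tested HOX genes, 10 kept their sign in every setting that tested them, among them HOXC6 (-0.69 to -0.47, FDR 0.1095 to 0.298), HOXD3 (-2.05 to -0.66, FDR 0.0888 to 0.412), HOXD8 (-1.22 to -0.55, FDR 0.0745 to 0.516) and HOXC9 (0.14 to 0.45, FDR 0.312 to 0.847). Limma-trend on log2(RPKM + 1) and log2(RPKM + 0.1) reversed the log2 fold change of HOXA9 to 0.0301 and 0.0323. It reversed HOXB6 to 0.0643 and 0.22, HOXC8 to 0.0992 and 0.12 and HOXD9 to 0.0938 and 0.106. With limma-trend the median of all tested genes also moved up, to 0.117 and 0.109, against 0.02 in the main fit. HOXA9 and HOXD9 lay below that median in both settings, and HOXB6 and HOXC8 with log2(RPKM + 1) only. These sign changes therefore do not by themselves set the genes apart from the whole table. Omitting the 2 libraries together gave 0.23 for HOXD9. With 1 library left out, HOXA3 ranged from -0.0472 to 0.53, HOXA4 from -0.00536 to 0.36, HOXA9 from -0.36 to 0.19, HOXA10 from -0.0575 to 0.50, HOXB4 from -0.0960 to 0.28, HOXB6 from -0.61 to 0.51, HOXC8 from -0.35 to 0.13, HOXC10 from -0.20 to 0.94 and HOXD9 from -0.44 to 0.30. The cause was not tested. Without a filter, HOXC5 had an unadjusted edgeR p of 0.0455 and an FDR of 0.289, and HOXC4 an FDR of 0.529.

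With the replicate block, 0 HOX genes, 457 genes and 5 list genes were called, the HOX median was 0.04, and HOXB6 and HOXC8 reversed to 0.0430 and 0.00807. The deviations of same-numbered libraries correlated at 0.226, -0.03797 and -0.1302, and not every library correlated best with its own number. The highest correlation between the breeds was 0.287, of QHMM replicate 2 with STH replicate 3. With 3 libraries per breed, these values cannot decide whether the numbers pair the animals. Depth limits HOX genes under about 10 counts, where a few reads decide a value.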

Other observations

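Ratios within a library do not depend on the scaling of that library, and 8 ratios of abundant HOX genes, chosen after their values were seen, were computed from RPKM without a test. The ratio of HOXC9 to HOXC6 was 0.387, 0.367 and 0.425 in the QHMM libraries and 0.702, 0.710 and 0.874 in the STH libraries. Every STH library was above every QHMM library, which follows from the separation of HOXC9 and HOXC6 in opposite directions and adds nothing to it. The ratio of HOXC10 to HOXC6 was 0.344, 0.969 and 0.283 in QHMM and 0.642, 0.935 and 1.06 in STH, where QHMM replicate 2 reached the STH values. HOXD8 to HOXD9 stood at 2.47, 1.45 and 2.92 in QHMM against 1.07, 0.978 and 1.72 in STH. Here QHMM replicate 2 was below STH replicate 3. Between the group 10 paralogs, HOXC10 was 2.4996, 4.02 and 1.90 times HOXA10 in QHMM and 1.93, 3.25 and 3.79 times in STH, so HOXC10 was the higher of the pair in 6 of 6 libraries.

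The libraries also differed in how many of the 19 tested HOX genes had their extreme value there. QHMM replicate 1 had the lowest normalized count of 9 of them, while QHMM replicates 2 and 3 had the highest count of 6 each. The same was not counted over all tested genes, so it cannot be told whether these numbers are particular to HOX genes. All 6 libraries had 23 or 24 HOX genes above 3 reads.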
